A study of Mus musculus with 6 samples.

Results

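The AP-1 and Bach factors described here are 10 genes: Fos, Fosb, Fosl1, Fosl2, Jun, Junb, Jund, Atf3, Bach1 and Bach2. They were taken by symbol, as probe sets that the platform annotation lists under that gene alone, and all 10 were found among 19938 genes, each with 1 probe set. They were measured in Ly-6C-negative and in Ly-6C-positive naive CD4 T cells, 3 arrays each, labelled as biological replicates. Ly-6C is a lipid-anchored surface protein that part of the naive CD4 T cells carry. Both groups came from peripheral lymph nodes of 6-week-old C57BL/6 Foxp3-GFP mice, in which a fluorescent protein reports the regulatory T cell factor Foxp3. All cells were sorted as CD4+, CD8-, TCRβ+, CD44lo, CD25- and Foxp3-, and the groups differ by label in Ly-6C alone. The labels name no treatment of the mice or cells. They do not say whether cells of several mice were pooled or whether an array stands for an animal of its own, so the p-values measure the spread between these arrays.

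AP-1 is a family of paired transcription factors held together by leucine zippers. A Fos protein pairs with a Jun protein, Jun proteins also pair with each other, and Atf3 can pair with Jun proteins. Signals from the T cell receptor and costimulation act on AP-1 through MAP kinases, and AP-1 binds beside NFAT at cytokine genes of activated T cells. Bach1 and Bach2 pair with small Maf proteins and repress genes with related sites; Bach2 is known for holding back effector genes in naive T cells and B cells, and Bach1 for repressing haem and oxidative stress genes until haem is bound.

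Several AP-1 genes are known to be controlled through sites of their own family or of the related CREB and ATF factors, so the stretch before the start of the members with a match to such a site is shown. Promoter sequences were available for 9 of the 10 members, and each line gives the 150 bases before the RefSeq start, in the GRCm38.p6 build, read 5′ to 3′ on the gene's strand. Capitals mark the matches.
Jun, chr4:95052223-95052372, minus strand: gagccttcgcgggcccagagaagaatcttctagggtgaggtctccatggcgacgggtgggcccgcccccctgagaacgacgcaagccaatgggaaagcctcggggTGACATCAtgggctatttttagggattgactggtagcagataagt
Junb, chr8:84978749-84978898, minus strand: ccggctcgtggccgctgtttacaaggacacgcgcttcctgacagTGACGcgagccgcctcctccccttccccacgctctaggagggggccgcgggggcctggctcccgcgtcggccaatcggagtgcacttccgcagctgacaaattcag
Fos, chr12:85473740-85473889, plus strand: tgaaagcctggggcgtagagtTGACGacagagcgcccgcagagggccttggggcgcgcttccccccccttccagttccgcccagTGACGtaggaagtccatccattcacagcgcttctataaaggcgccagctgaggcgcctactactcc
Fosb, chr7:19310046-19310195, minus strand: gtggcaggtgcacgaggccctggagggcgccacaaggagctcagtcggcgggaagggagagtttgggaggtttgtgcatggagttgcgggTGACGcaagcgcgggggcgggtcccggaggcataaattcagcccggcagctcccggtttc
Atf3, chr1:191183334-191183483, minus strand: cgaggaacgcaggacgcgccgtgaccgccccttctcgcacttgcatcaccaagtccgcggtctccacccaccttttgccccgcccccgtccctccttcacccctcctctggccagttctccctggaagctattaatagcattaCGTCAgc

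The search covered 250 bases before the start on both strands. The CRE-type site TGACNTCA was found in Jun alone among the 9, as TGACATCA, and in 7.49% of 32851 RefSeq promoters of this length. The CRE half-site TGACG, read as CGTCA on the other strand, was found in Fos, Fosb, Junb and Atf3, which makes 4 of 9, and in 17.8% of all promoters. The letters CG, part of TGACG, occur 15, 19, 20 and 24 times in the 250 bases of Fos, Fosb, Junb and Atf3. In the other members they occur from 3 times, in Jund, to 25 times, in Bach1. The 17.8% was not matched for the number of CG. The AP-1 site TGANTCA was found in 0 of the 9 and in 6.75% of all promoters, and the Maf recognition element, the site of Bach and small Maf pairs, in 0 of the 9 and in 0.00609% of all promoters. By their letters, every Maf recognition element also holds the AP-1 site, and a TGACNTCA with G at the variable base also holds TGACG. The RefSeq starts of Bach2 and Jund, both counted among the 9, may not be their main starts. A match describes the letters of these windows and no binding was measured.

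None of the 10 genes differed past the threshold between Ly-6C-negative and Ly-6C-positive cells. The largest difference was in Jun, which measured 1.23-fold lower in Ly-6C-negative cells, followed by Fosb and Fosl1, also lower, and Bach2, higher. The test was limma's moderated test on log2 expression over all genes, with Benjamini-Hochberg adjustment and a threshold of adjusted p 0.05. It called 29 of 19938 genes, or 0.145%, and 0 of the 10 members; without adjustment, 3 of 10 members had a p under 0.05 (Jun, Fosl1 and Bach2), against 6.71% of all genes; 1 of the 3 was higher (3.44% of all genes were) and 2 were lower (3.27% were). The limma adjusted p of the members lay between 0.577, for Jun, and 0.999, for Fos. In all, 5 members lay above 0 and 5 below, with a median difference of -0.023 on the log2 scale, against -0.0048 for all genes. Differences are log2 expression in Ly-6C-negative minus Ly-6C-positive cells throughout. In bulk samples, a lower level in every cell and fewer cells that express a gene cannot be told apart.

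**Figure D1:**
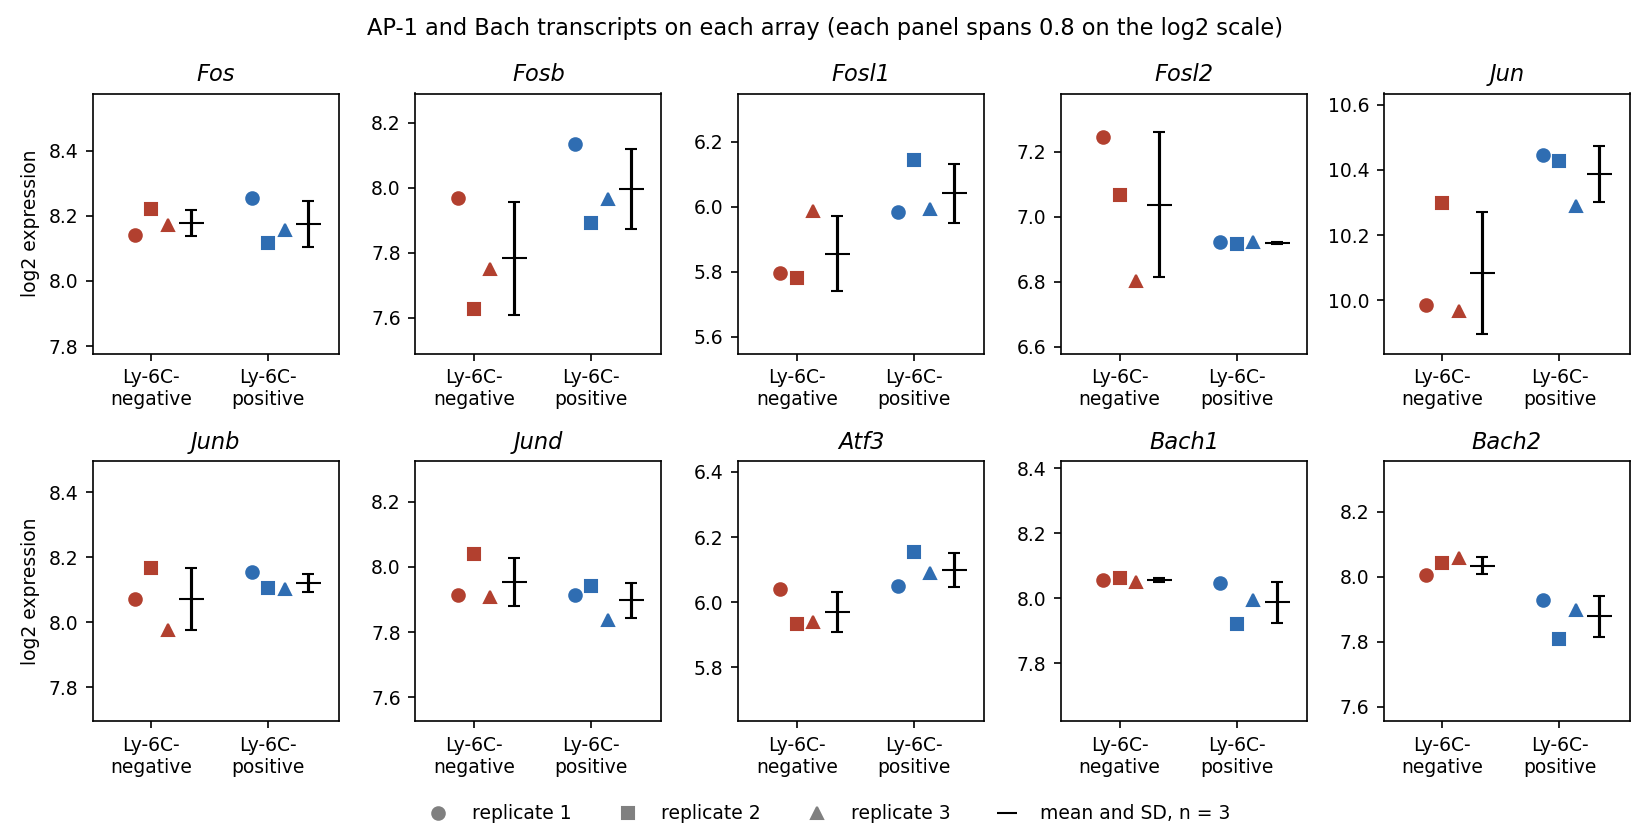
Log2 expression of each member on each array, with 1 panel per gene, Ly-6C-negative cells on the left and Ly-6C-positive cells on the right, symbols for the replicate number, and bars for the mean and SD of 3 arrays. Each panel spans the same range of 0.8, so that the spread can be compared between genes while the levels cannot; the Jun points of Ly-6C-negative replicates 1 and 3 lie lowest in their panel, and the Bach2 points of both groups are apart.

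Among the Jun genes, Jun encodes the most strongly activating Jun protein, whose activity JNK raises by phosphorylation. Jun measured 9.98, 10.30 and 9.97 on the log2 scale in Ly-6C-negative replicates 1, 2 and 3, against 10.45, 10.43 and 10.29 in Ly-6C-positive replicates 1, 2 and 3. Ly-6C-negative replicates 1 and 3 were below every Ly-6C-positive array, and Ly-6C-negative replicate 2 lay just above the lowest of them, so the groups overlap. The means were 10.08 ± 0.19 in Ly-6C-negative cells and 10.39 ± 0.086 in Ly-6C-positive cells (SD, n = 3 each), a difference of -0.30 with a standard error of 0.098 and a 95% interval of -0.52 to -0.084 (limma adjusted p = 0.577). The labels do not say that arrays of the same number are pairs. Compared between arrays of the same number, Jun was lower in Ly-6C-negative cells in 3 of 3 such pairs, with differences of -0.46, -0.13 and -0.32. With the replicate number as a block, the limma adjusted p was 0.389. Without Ly-6C-negative replicate 2 the difference was -0.41 (limma adjusted p = 0.0940), and over the other alternatives the limma adjusted p lay between 0.180 and 0.996, so that none brought Jun past the threshold. The size of the difference exceeded that of 98.7% of all genes. The SD of Jun pooled over both groups was also large, above that of 81.4% of all genes.

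Junb and Jund differed less. Junb, which can restrain Jun and is a partner of Batf in helper T cells, measured 8.07, 8.17 and 7.98 in Ly-6C-negative cells, against 8.15, 8.11 and 8.10 in Ly-6C-positive cells. Its difference was -0.049, with a 95% interval of -0.21 to 0.11 (limma adjusted p = 0.944), and it was -0.0021 without Ly-6C-negative replicate 3, -0.096 without Ly-6C-negative replicate 2 and -0.033 without Ly-6C-positive replicate 1. Jund, the Jun gene known for steady expression in resting cells, measured 7.91, 8.04 and 7.91 in Ly-6C-negative cells, against 7.91, 7.94 and 7.84 in Ly-6C-positive cells. Its difference was 0.056, with a 95% interval of -0.10 to 0.21 (limma adjusted p = 0.931), and it was 0.013 without Ly-6C-negative replicate 2 and 0.025 without Ly-6C-positive replicate 3. The groups overlap in both genes.

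The Fos genes showed no common direction. Fos, the immediate-early gene of the family, measured 8.14, 8.22 and 8.17 in Ly-6C-negative cells, against 8.25, 8.12 and 8.16 in Ly-6C-positive cells. The Ly-6C-positive arrays hold both the highest and the lowest of the 6 values. Its difference was 0.0032 with a 95% interval of -0.15 to 0.15 (limma adjusted p = 0.999), the ends of which are ratios of 0.902 and 1.11. Its sign changed with the processing.

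Fosb, another immediate-early Fos gene, measured 7.97, 7.63 and 7.75 in Ly-6C-negative cells, against 8.13, 7.89 and 7.96 in Ly-6C-positive cells. Ly-6C-negative replicate 1 lay above 2 of the Ly-6C-positive arrays, and the groups overlap, yet within each replicate number Fosb was lower in Ly-6C-negative cells, with differences of -0.16, -0.27 and -0.21. The difference was -0.21 with a standard error of 0.0997 and a 95% interval of -0.44 to 0.0091 (limma adjusted p = 0.753, and 0.547 with the replicate number as a block). Without Ly-6C-negative replicate 2 it was -0.14, and with any other array left out it lay between -0.31 and -0.15.

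Fosl1, the gene of Fra-1, measured 5.80, 5.78 and 5.99 in Ly-6C-negative cells, against 5.98, 6.15 and 5.99 in Ly-6C-positive cells. It was lower in Ly-6C-negative cells in 3 of 3 pairs, with a difference of only -0.0066 in the third, and the groups overlap. The difference was -0.19 with a 95% interval of -0.37 to -0.0030 (limma adjusted p = 0.741). Its mean lies below that of the median gene, 6.37, where array values are compressed towards background.

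Fosl2, the gene of Fra-2, had the members' largest SD pooled over both groups, 0.157, close to Fosb at 0.150 and Jun at 0.146. It measured 7.24, 7.06 and 6.80 in Ly-6C-negative cells, an SD of 0.22, against 6.92, 6.92 and 6.92 in Ly-6C-positive cells, an SD of 0.0032. The Ly-6C-negative arrays lie on both sides of the Ly-6C-positive ones. The difference was 0.12 with a 95% interval of -0.11 to 0.35 (limma adjusted p = 0.902), and it was 0.014 without Ly-6C-negative replicate 1 and 0.23 without Ly-6C-negative replicate 3.

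Atf3, a stress-induced factor that as a pair of its own represses transcription, measured 6.04, 5.93 and 5.94 in Ly-6C-negative cells, against 6.05, 6.15 and 6.09 in Ly-6C-positive cells. All Ly-6C-negative arrays were below all Ly-6C-positive arrays, with a difference of only -0.010 in the first pair. The difference was -0.13 with a 95% interval of -0.28 to 0.023 (limma adjusted p = 0.811), and this probe set, too, is dimmer than the median gene.

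The Bach genes were the members with the least spread between replicates when both groups are pooled. Bach2 measured 8.004, 8.041 and 8.057 in Ly-6C-negative cells, against 7.927, 7.808 and 7.898 in Ly-6C-positive cells. All Ly-6C-negative arrays were above all Ly-6C-positive arrays. The group means were 8.03 ± 0.027 in Ly-6C-negative cells and 7.88 ± 0.062 in Ly-6C-positive cells (SD, n = 3 each), a difference of 0.16, or 1.11-fold, with a 95% interval of 0.0095 to 0.30 (limma adjusted p = 0.724). Leaving out an array gave differences of 0.12 to 0.18.

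Bach1 measured 8.06, 8.06 and 8.05 in Ly-6C-negative cells, against 8.05, 7.92 and 7.99 in Ly-6C-positive cells. The groups touch without overlapping, since Ly-6C-negative replicate 3 lies above Ly-6C-positive replicate 1 only in the third decimal. The difference was 0.069 with a 95% interval of -0.076 to 0.21 (limma adjusted p = 0.909), and it was 0.037 without Ly-6C-positive replicate 2 and at most 0.099 with any other array left out. Bach1, Bach2 and Atf3 make 3 of 10 members whose groups do not overlap, where 12.6% of all genes do so. In Ly-6C-negative cells 2 of them lie above and 1 below, beside 6.12% and 6.50% of all genes.

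**Figure D2:**
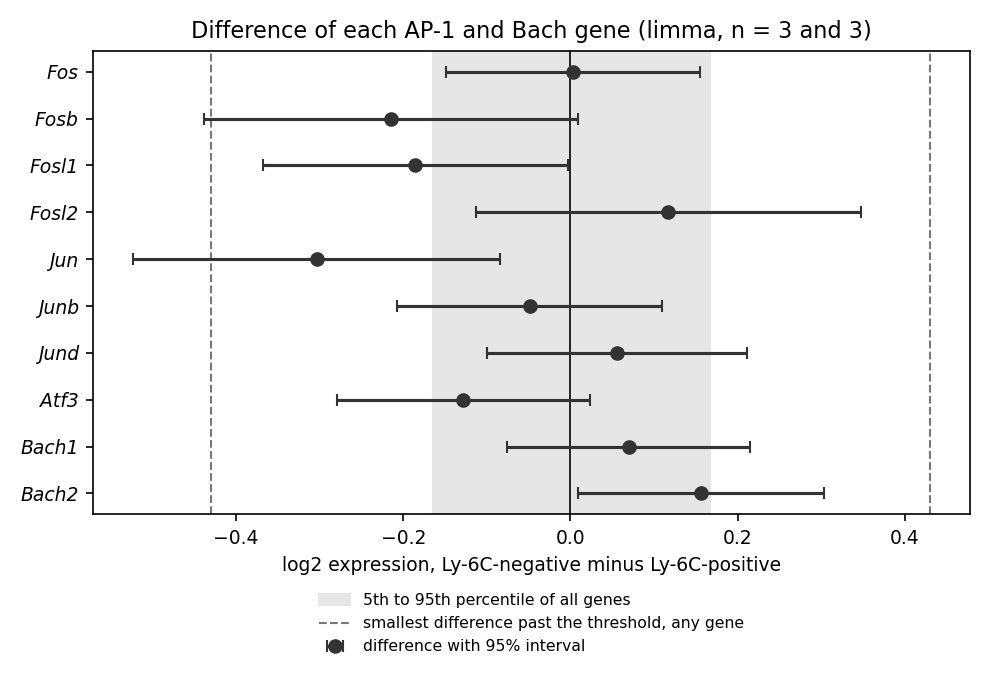
Difference of each member in log2 expression, Ly-6C-negative minus Ly-6C-positive, as a point with its 95% interval from the limma fit. The grey band spans the 5th to the 95th percentile of all genes, -0.16 to 0.17, and the dashed lines mark 0.43, the smallest difference of any gene past the threshold; Jun, Fosb and Fosl1 lie left of the band and no member's point reaches a dashed line.

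Whether members of a family differed unequally was asked by their log ratio within each array, which does not depend on the scaling of the array by its median. The ratios were chosen after the values had been seen, and cover all 10 pairs within the Fos, Jun and Bach families. With 3 arrays against 3 the exact 2-sided permutation test cannot go below p = 0.10, so no pair could pass. The log2 ratio of Jun over Jund was 2.07, 2.26 and 2.06 in Ly-6C-negative cells, against 2.53, 2.48 and 2.45 in Ly-6C-positive cells. The groups were apart, with a difference of -0.36 (exact permutation p = 0.10, 0.20 adjusted over 10 pairs). Without Ly-6C-negative replicate 2 that difference was -0.42, and with any other array left out it lay between -0.38 and -0.32.

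Jun over Junb was 1.91, 2.13 and 1.99 in Ly-6C-negative cells, against 2.29, 2.32 and 2.18 in Ly-6C-positive cells, a difference of -0.25. Junb over Jund differed by -0.10, Bach1 over Bach2 by -0.087 and Fosb over Fosl2 by -0.33. In these 5 ratios all Ly-6C-negative arrays were below all Ly-6C-positive arrays, each with the same exact permutation p of 0.10, adjusted to 0.20. That p is the lowest the test can give, so it neither ranks these ratios nor shows that any of them differs. After quantile normalization of the deposited values, Junb over Jund had an exact permutation p of 0.20, so that its groups overlapped. The other ratios without overlap stayed at 0.10. How often pairs of other genes are apart was not tested, so the count of 5 has no background. The Jun ratios share values, and Jun over Jund and Jun over Junb also carry the difference of Jun itself. The groups overlapped in the other 5 ratios, with exact permutation p from 0.20 to 1. The level of a ratio compares different probes and has no meaning by itself.

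**Figure D3:**
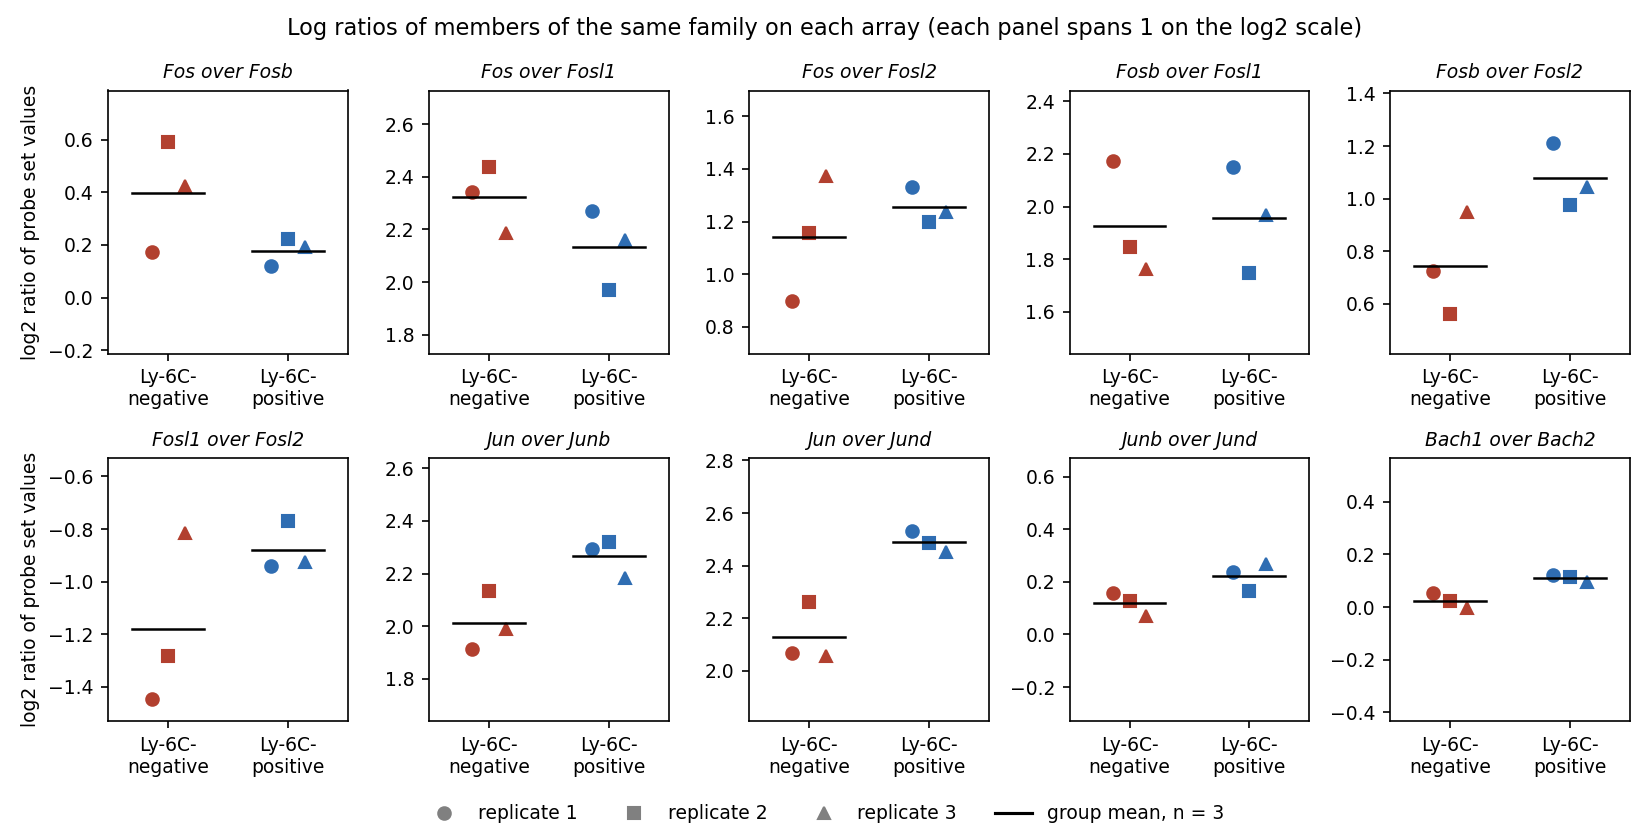
Log2 ratio of the probe set values of 2 members of a family on each array, with Ly-6C-negative cells on the left and Ly-6C-positive cells on the right, symbols for the replicate number and a line for the mean of 3 arrays. Each panel spans 1 on the log2 scale. The groups are apart in Jun over Jund, Fosb over Fosl2 and Jun over Junb, by -0.36, -0.33 and -0.25. They are also apart in Junb over Jund and Bach1 over Bach2, by -0.10 and -0.087. They overlap in the remaining ratios, among them the 3 ratios of Fos to the other Fos genes.

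Across the 6 arrays, the profiles of the members were compared by distance, which also depends on how much each gene varies. Whether the members moved together was not tested. After each gene's mean was subtracted, Fos and Bach1 lay closest to each other, with a mean absolute difference of 0.034 on the log2 scale per array, and Jun and Bach2 farthest apart, at 0.23. Among 9320 annotated protein-coding genes at or above the median gene, 707 lay within 0.05 of the Fos profile, or 7.59%, so that likeness to Fos is common among genes that vary little. The closest were Mylk3, Mob3b, Abcc1, Fam135b and Zfp658, at 0.018 to 0.020. For Bach2, 327 genes or 3.51% lay within 0.05, and the closest were Sirt1 at 0.0089, Pptc7 at 0.017, Sptan1 at 0.021, Ptcd1 at 0.022 and Etv3 at 0.022.

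Of the genes that pair with these factors, 0 of 7 passed the threshold. Mafg, a small Maf partner of the Bach proteins, measured 7.71, 7.62 and 7.59 in Ly-6C-negative cells, against 7.52, 7.31 and 7.45 in Ly-6C-positive cells. The groups do not overlap, and the difference was 0.22 with a 95% interval of 0.045 to 0.38 (limma adjusted p = 0.619). The other small Maf genes, Maff and Mafk, differed by 0.14 and 0.025, and Batf2, of the Batf family that pairs with Jun proteins, by -0.072, and with an array left out Batf2 ran from -0.12 to -0.032. Among 32 other measured factors with a basic leucine zipper 0 passed. Maf, the gene of c-Maf, a factor of cytokine genes in helper T cells, measured 6.89, 6.93 and 6.89 in Ly-6C-negative cells, against 6.68, 6.79 and 6.40 in Ly-6C-positive cells, a difference of 0.29 with a 95% interval of 0.069 to 0.50 (limma adjusted p = 0.599), and 0.17 without Ly-6C-positive replicate 3. Crem, a cAMP-responsive factor, differed by 0.31, or by 0.20 without Ly-6C-negative replicate 1, Mafa by 0.13 and Hlf by -0.20.

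Of the kinases and factors that act on AP-1 genes, 0 of 20 measured passed, 15 of them above 0, with a median difference of 0.055. Map3k8, the kinase Tpl2 that feeds the ERK pathway, measured 7.24, 7.14 and 7.29 in Ly-6C-negative cells, against 6.89, 7.00 and 6.90 in Ly-6C-positive cells. All Ly-6C-negative arrays were higher, and the difference of 0.29 did not pass the threshold (95% interval 0.14 to 0.45, limma adjusted p = 0.357). Elk3, a partner of SRF at serum response elements such as that of Fos, differed by 0.21, Mapk8, the kinase JNK1 that acts on Jun, by 0.16, and Map3k7 by 0.11. Without Ly-6C-negative replicate 3 Map3k7 differed by 0.045, and without Ly-6C-positive replicate 2 by 0.060.

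Of 11 measured haem and oxidative stress genes repressed by Bach1, 0 passed and the median difference was -0.0088. Hmox1, the haem oxygenase gene and the best known Bach1 target, measured 5.94, 5.90 and 5.84 in Ly-6C-negative cells, against 5.96, 5.90 and 5.85 in Ly-6C-positive cells. Its values overlap, and it is dimmer than the median gene. Gclc and Blvrb differed by 0.15 and 0.13, and Nqo1 and Slc40a1 by -0.10 and -0.062, with limma adjusted p from 0.749 to 0.927. Nqo1 and Slc40a1, at means of 4.42 and 5.05, are also dimmer than the median gene. Without Ly-6C-negative replicate 2 Blvrb differed by 0.084 and Slc40a1 by -0.0075, without Ly-6C-negative replicate 3 Nqo1 by -0.029, and without Ly-6C-negative replicate 1 Slc40a1 by -0.10.

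Of 26 measured effector genes linked to AP-1 or Bach2, 0 passed, with a median difference of 0.041. Of these, 15 lay above 0 and 11 below, and 10 were at or above the median gene. Prdm1, the gene of Blimp-1 and a target that Bach2 represses, measured 5.747, 5.888 and 5.863 in Ly-6C-negative cells, against 5.893, 6.080 and 5.903 in Ly-6C-positive cells. The groups are apart only in the third decimal, Ly-6C-negative cells being lower, and 12.6% of all genes are without overlap. The difference of -0.13 did not pass the threshold (95% interval -0.30 to 0.047, limma adjusted p = 0.842), and Prdm1 is dimmer than the median gene. Irf4, the gene of a factor that binds with AP-1 at composite sites, measured 8.02, 7.88 and 7.94 in Ly-6C-negative cells, against 7.59, 7.75 and 7.60 in Ly-6C-positive cells, a difference of 0.30 (95% interval 0.14 to 0.46, limma adjusted p = 0.364). The cytokine genes Il10 and Il2 differed by 0.24 and 0.21, both from levels below the median gene.

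Of 27 measured immediate-early and stress genes outside AP-1, 0 passed the threshold. Of these, 18 lay above 0 and the median difference was 0.083, where 47.8% of all genes lay above 0. Nr4a1, the gene of Nur77, which T cell receptor signals induce, measured 8.50, 8.60 and 8.40 in Ly-6C-negative cells, against 8.10, 8.21 and 8.16 in Ly-6C-positive cells, a difference of 0.34 (95% interval 0.18 to 0.51, limma adjusted p = 0.256). Ppp1r15a, the stress gene of GADD34, measured 9.35, 9.37 and 9.17 in Ly-6C-negative cells, against 9.62, 9.70 and 9.49 in Ly-6C-positive cells, a difference of -0.31 (95% interval -0.49 to -0.12, limma adjusted p = 0.461). Gadd45b and Btg1 differed by 0.23 and 0.16, the first with groups apart only in the fourth digit after the point.

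**Figure D4:**
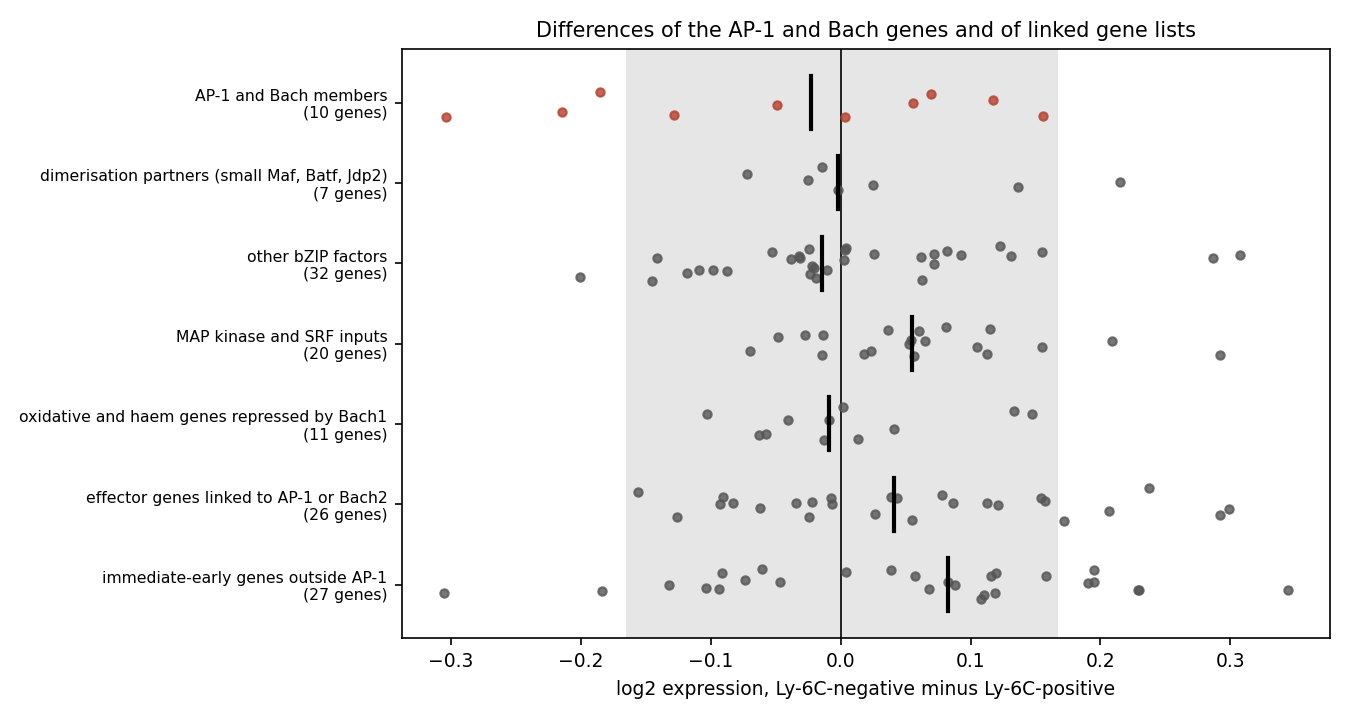
Differences in log2 expression, Ly-6C-negative minus Ly-6C-positive, of the 10 members, in red, and of the measured genes of 6 linked lists, in grey, with a black bar at each list's median. The grey band spans the 5th to the 95th percentile of all genes, -0.16 to 0.17; the median of the immediate-early list lies at 0.083 and that of the members at -0.023, and Map3k8 and Nfil3 appear in 2 lists each.

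The medians of the arrays ran from 6.25 to 6.29, and their small number limits the precision of every value here. Markers of naive CD4 T cells were present, with 9 of 9 measured at or above the median gene, while 0 of 5 B cell, 0 of 8 monocyte, macrophage and neutrophil and 0 of 5 dendritic cell markers were. Of the other lists, 1 of 2 CD8 T cell markers, Cd8b1, and 2 of 6 NK cell markers reached that level. So did 4 of 6 regulatory T cell markers, among them Foxp3 at a mean of 6.67, and 2 of 4 measured memory markers, Cd44 and Il2rb. Cd8a and Cd8b1 differed by -0.029 and -0.12. Of 6 regulatory T cell markers, 2 were higher in Ly-6C-negative cells past the threshold, Ctla4 and Ikzf2, and the mean level of the list ran from 7.07 to 7.40 over Ly-6C-negative arrays and from 6.81 to 6.89 over Ly-6C-positive arrays. Of these 6, 5 lay above 0 and 1 below, with a median difference of 0.23. Ctla4 differed by 1.34 and Ikzf2 by 0.63, Nrp1 by 0.33, Il2ra by 0.12 and Tnfrsf18 by -0.012. Foxp3 itself differed by 0.013. Of 6 NK cell markers, 1 was lower in Ly-6C-negative cells past the threshold, Klrd1, and the mean level of the list ran from 5.57 to 5.72 over Ly-6C-negative arrays and from 5.95 to 5.96 over Ly-6C-positive arrays. In that list 3 genes lay above 0 and 3 below, with a median difference of -0.023; Klrd1 differed by -1.503 and Prf1 by -0.70, and Nkg7 by 0.17, Gzmb by 0.11 and Klrb1c by 0.0083. Of 4 measured memory markers, 1 was higher past the threshold, Il2rb, by 1.12. Cxcr3 differed by 0.12, Cd44 by -0.25 without overlap of the groups (limma adjusted p = 0.427), and S100a4 by -0.092. The part of these markers in the differences of Jun and Bach2 was not tested.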

How the data were processed

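Total RNA of sorted cells was extracted with a column kit, whole-transcriptome amplification started from 50 ng, and biotin labelling from 5 µg of cDNA, per the labels' protocols. The deposited table holds log2 expression of 28853 probe sets on 6 Affymetrix arrays. RMA and Partek are named in the submitters' processing notes, without versions or roles; RMA corrects background, quantile-normalizes and summarises on the log2 scale, which hides a shift common to all genes and compresses the differences of dim ones. The genome build is not given in the sources used here. Values were used as deposited.

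Probe sets with 1 symbol (21789) were named by Entrez ID; 1621 with several symbols and 5443 not listed were left out. The probe set with the highest mean stood for a gene. Differences were tested over 19938 genes with limma 3.58.1 in R 4.3.3 (lmFit, eBayes, 2-sided, Benjamini-Hochberg), without covariates; intervals are limma's, at 95%. The steps were tested on simulated data. Figures were drawn with matplotlib 3.10.9. Promoters are from RefSeq, GRCm38.p6.

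Members and lists were chosen with earlier results of these data known, and the log ratios after their values were seen. The genes named are all members, in each linked list those past the threshold and up to 4 with the smallest p, and the 5 genes closest in profile to Fos and to Bach2 among protein-coding genes at or above the median gene. Hmox1, Prdm1 and the cell type markers were named besides. After group means were subtracted, arrays of the same replicate number correlated over the genes at 0.129, 0.128 and 0.107, all above the bound of 0.1 for reading the numbers as pairs; the pairing comes from these values and not from the labels.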

Additional observations from a re-analysis of the deposited data

How the results depend on the processing

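Under 15 alternatives, 0 of the 10 members passed the threshold in any of them, and 0 genes of the 6 linked lists did. The members kept their direction except Fos. The difference of Fos was -0.0055 after quantile normalization of the deposited values and -0.010 with array weights, and ran from -0.027 to 0.043 with an array left out. Among linked genes, leaving out an array gave -0.015 to 0.083 for Mafk and -0.010 to 0.27 for Maff. Fosl1 and Atf3 were not tested without dim genes. In the fit with the replicate block, 41 genes passed in place of 29 and no call of a member or linked gene changed. Testing each probe set by itself gave 45 past the threshold, array weights 54 genes, and leaving out an array 5 to 47 genes, the fewest without Ly-6C-negative replicate 1 and the most without Ly-6C-negative replicate 2. Without Ly-6C-positive replicate 1, 2 or 3 the count was 8, 6 or 8. The causes were not tested. In the fit as reported, no difference under 0.43 on the log2 scale passed for any gene.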
